A study of Mus musculus with 3 samples.

Results

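The 9 genes described here are markers of blood cells, namely 4 genes of red cells (Hba-a1, Hba-a2, Alas2 and Slc4a1) and 5 genes of neutrophils (S100a8, S100a9, Ngp, Camp and Ltf), out of 37323 genes named on the arrays. They were found as the probes that carry these names in the array annotation, which gave 10 probes on 37 spots, since Hba-a1 has 2 probes and each of the other genes has 1. The genes were chosen by name after the ratios of MA to SPA on these same arrays had been seen, where the α-globin genes stood first, so their values are a description and no test was made of them. The question was whether RNA of blood cells in MA holds genes of white cells as well as genes of red cells.

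Gene expression was measured with 1 Agilent 1-colour microarray for each of 3 cell fractions of epididymal fat from male C57/BL mice at 20 weeks of age. Fat was digested with collagenase and spun at 9 g for 1 sec. The cells below the floating layer were stromal vascular cells (SVC), and the floating layer was spun again at 226 g for 3 min, which left mature adipocytes (MA) afloat and small proliferative adipocytes (SPA) in the sediment. SVC and SPA were grown in DMEM until 90% confluent before RNA was taken, whereas no culture is described for MA, which also carries a later date in the design than the other fractions. No genetic change or drug was named for any group, and how many mice stand behind each array is not given in the sources used here. Cell fraction, culture and date thus cannot be told apart in any comparison of MA with SPA or SVC. Each group holds 1 array, so no difference has a replicate check. In such bulk samples, fewer cells of a type and less RNA per cell also cannot be told apart.

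Red cells carry oxygen on haemoglobin, which is built of α- and β-globin chains around haem. Mature red cells of mammals have no nucleus, but the youngest of them in blood, the reticulocytes, still hold globin mRNA. Neutrophils are short-lived white cells, and many of their granule proteins are transcribed while they mature in the bone marrow and no longer once they circulate, whereas S100a8 and S100a9 mRNA is abundant in circulating neutrophils. Fat is rich in blood vessels.

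The first 30 of the 60 bases of 5 probes are shown, because they set which transcripts each value counts. The first pair are the α-globin probes, in which capitals mark the bases that both share. The third is the other probe of Hba-a1, and the last pair are the probes of S100a8 and S100a9, which share no long run.
Hba-a1, 3′ probe: cTTCTTCTCTCCCTTGCACCTGTACCTCTT
Hba-a2: TTCTTCTCTCCCTTGCACCTGTACCTCTTG
Hba-a1, 5′ probe: tacttccctcactttgatgtaagccacggc
S100a8: cttgttcagagaattggacatcaatagtga
S100a9: gtctaaagggaatggcttactcaatggcct

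The 3′ probe of Hba-a1 was placed by the array annotation at chr11:32184427-32184486 and that of Hba-a2 at chr11:32197245-32197304, both on the plus strand of mm9. They share a run of 59 of their 60 bases, shifted by 1 base, so their values cannot be assigned to either gene alone and are uncertain as to which copy was expressed. The 5′ probe of Hba-a1 lay at chr11:32183955-32184014 and shared no run longer than 6 bases with either, but it too is annotated to RefSeq transcripts of both genes, so its value is likewise uncertain as to the copy. The probe of S100a8 lay at chr3:90473778-90473837 on the plus strand and that of S100a9 at chr3:90496573-90496632 on the minus strand, and the longest run that they share is 6 bases.

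The 150 bases before the start sites of the α-globin genes, Alas2, S100a8 and S100a9 are shown from RefSeq (GRCm38.p6), because these are the members that differed between fractions. Capitals mark 5 motifs, searched on both strands. The GATA motif, bound by GATA factors of red cells among others, was searched as GATAA. The box of that name was searched as CCAAT, and the TATA box, which sets the start of transcription, as TATAA. The CACC motif, bound by factors of the Klf family, was searched as CACCC. The motif of PU.1, a factor of myeloid cells, was searched as GAGGAA. S100a9 is on the minus strand and the others on the plus strand.
Hba-a1, chr11:32283522-32283671: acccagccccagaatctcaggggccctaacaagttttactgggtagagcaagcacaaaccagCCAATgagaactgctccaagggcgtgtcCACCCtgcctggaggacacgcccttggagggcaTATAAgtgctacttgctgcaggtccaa
Hba-a2, chr11:32296342-32296491: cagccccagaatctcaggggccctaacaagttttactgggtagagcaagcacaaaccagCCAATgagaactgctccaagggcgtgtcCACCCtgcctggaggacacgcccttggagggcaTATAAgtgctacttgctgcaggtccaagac
Alas2, chrX:150547267-150547416: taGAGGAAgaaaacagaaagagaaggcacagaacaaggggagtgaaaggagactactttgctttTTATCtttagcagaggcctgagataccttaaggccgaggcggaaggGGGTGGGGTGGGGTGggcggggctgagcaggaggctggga
S100a8, chr3:90668921-90669070: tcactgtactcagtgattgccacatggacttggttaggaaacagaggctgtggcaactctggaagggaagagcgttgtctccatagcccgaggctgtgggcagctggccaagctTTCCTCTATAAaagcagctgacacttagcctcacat
S100a9, chr3:90695722-90695871: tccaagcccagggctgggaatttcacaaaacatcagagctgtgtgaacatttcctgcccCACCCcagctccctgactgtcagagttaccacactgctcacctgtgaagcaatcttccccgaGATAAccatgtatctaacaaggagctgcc

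The windows of Hba-a1 and Hba-a2 share a run of 147 of 150 bases, with 1 match each to the CCAAT box, the CACC motif and the TATA box. The window of Alas2 held the GATA motif once, the CACC motif 3 times in a row and the PU.1 motif once. S100a8 and S100a9, which lie near each other and whose proteins pair, held different motifs. The window of S100a8 held a PU.1 motif that adjoins a TATA box without overlap, and that of S100a9 held a CACC and a GATA motif. Of 32851 promoter windows of this length, 13.3% hold the GATA motif, 24.5% the CCAAT box, 14.2% the TATA box, 37.4% the CACC motif and 14.5% the PU.1 motif, and a match of letters shows no binding. Of the 9 genes, 8 have an entry in the promoter table, and Slc4a1 has none.

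Between 58.6% and 61.4% of 59305 spots were well above background on each array, and no spot was saturated. A level here is the log2 processed signal minus that of the 75th percentile on the same array, and a gene was called where the ratio of levels, or its lower bound, was at least 5-fold with the brighter array well above background. Where 1 array was not well above background, the ratio is a bound, set by the dimmest probe that did reach that mark there, or by the level of the gene itself where that was higher, and is written as "at least". The defining adipocyte genes Adipoq, Plin1 and Lep were well above background in MA, and 9 of 10 adipocyte genes were called higher in MA than in SPA. The only spread that can be given lies between spots of 1 array. Probes with 10 spots had a median SD (log2) between 0.15 and 0.16 at signals of 20 to 100. Above 1000 that SD was between 0.04 and 0.05. Below 20 it was larger, at 0.60 in SVC, 0.59 in SPA and 0.31 in MA.

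The α-globin genes were far higher in MA than in both cultured fractions. Hba-a1 encodes an α chain of haemoglobin, and its 3′ probe had a processed signal of 69.4 in SVC, 76.8 in SPA and 121929 in MA. MA was thus 1906-fold above SPA and 2066-fold above SVC, whereas SPA and SVC differed by only 1.08-fold. Hba-a2 encodes the same chain from a second gene copy, and its signal was 58.6 in SVC, 70.4 in SPA and 116858 in MA. Its ratio of MA to SVC was 2347-fold and ranked 4th of 20174 genes measured on both arrays, with Hba-a1 at rank 6. The α-globin signal in the cultured fractions was low but well above background, and the ratio of SPA to SVC for Hba-a2 was 1.18.

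Each α-globin probe has 10 spots, and they lay close together. For the 3′ probe of Hba-a1, the used spots ranged from 66.0 to 75.4 in SVC, from 68.9 to 83.4 in SPA and from 118061 to 126261 in MA. For Hba-a2, they ranged from 50.3 to 65.6 in SVC, from 60.4 to 77.2 in SPA and from 113306 to 119406 in MA. Spots of SVC and SPA overlapped and all spots of MA lay apart. The 5′ probe of Hba-a1, which shares no long run with the others, had 14.2 in SVC, 14.9 in SPA and 33462 in MA. It was well above background on 3 of 10 spots in SVC, on 5 of 10 in SPA and on 10 of 10 in MA, so it gives only bounds, at least 2689-fold over SPA and at least 2777-fold over SVC. One spot of that probe in SVC and 1 in SPA had an outlying local background.

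**Figure D1:**
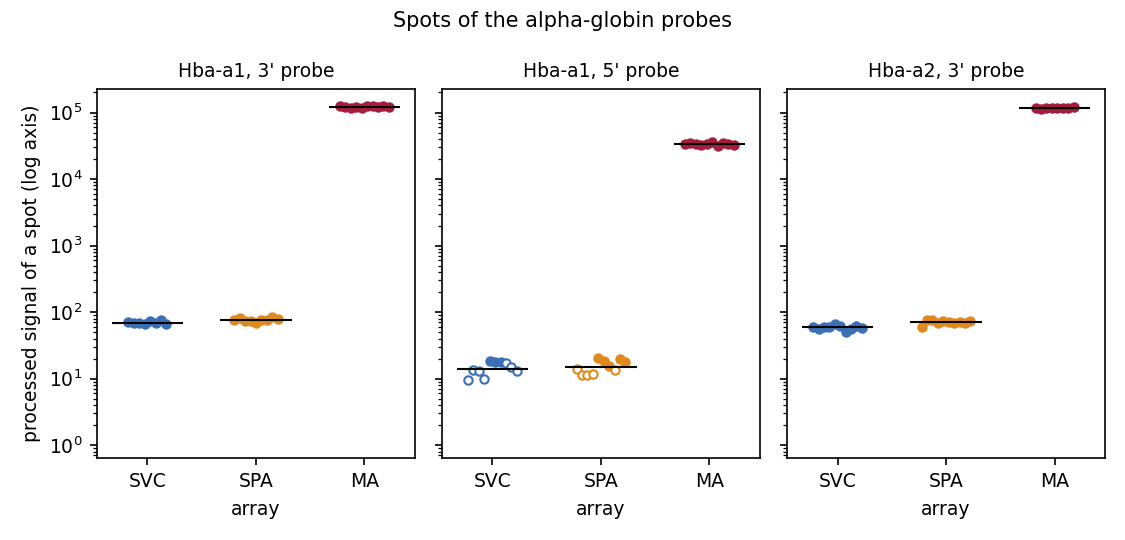
Processed signal (log axis) of each used spot of the 3 α-globin probes on the SVC, SPA and MA arrays, with hollow points for spots not well above background and a black line at the median of the spots. The spots of MA lie at 31812 or above for every probe, while no spot of SVC or SPA exceeds 83.4.

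Alas2, the erythroid form of the first enzyme of haem synthesis, was also higher in MA. Its signal was 3.42 in SVC, 2.96 in SPA and 675.8 in MA, and only the last was well above background. MA was at least 64.9-fold above SPA and at least 57.2-fold above SVC. Its probe lay at chrX:147004993-147005052 on the plus strand of mm9. Slc4a1 encodes band 3, the chloride-bicarbonate exchanger of the red cell membrane, and differed far less. Its signal was 28.7 in SVC, 30.2 in SPA and 66.8 in MA, that is 2.65-fold over SPA and 2.73-fold over SVC, with SPA 1.03-fold SVC. The ratio of Slc4a1 stayed below 5-fold in both comparisons and ranked 2005 of 20777 genes in MA over SPA. Of the 4 red cell genes, 3 were thus called in each comparison with MA and none between SPA and SVC.

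The 5 neutrophil genes did not move together. S100a9, 1 of the subunits of the neutrophil protein calprotectin, had a signal of 79.8 in SVC, 3.69 in SPA and 421.6 in MA. It was not well above background in SPA, so MA was at least 40.5-fold above SPA, and MA was 6.21-fold above SVC. SPA was at least 6.52-fold below SVC for this gene. With a normexp background correction the ratios of S100a9 that involve SVC fell below 5-fold, at log2 values of 1.94 for MA over SVC and -1.07 for SPA over SVC. S100a8, the other subunit of calprotectin, had a signal of 445 in SVC, 2697 in SPA and 934 in MA. S100a8 was thus highest in SPA, where it was 5.94-fold above SVC (rank 35 of 20822 genes) and 2.41-fold above MA, and MA was 2.47-fold above SVC. The 2 partners of calprotectin therefore differed in opposite directions from SVC to SPA.

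None of the 3 granule genes was called in any comparison. Camp encodes the antimicrobial peptide cathelicidin of the secondary granules, and its signal was 140 in SVC, 117 in SPA and 105 in MA. The ratio of MA to SPA for Camp was 1.08 after scaling, its log2 value of 0.11 lying inside the range from -2.01 to 2.26 that holds the 5th to the 95th percentile of all genes. Ltf encodes lactoferrin, the iron-binding protein of the same granules, and its signal was 24.6 in SVC, 49.4 in SPA and 11.9 in MA. The ratio of MA to SPA for Ltf was 0.289 and that of MA to SVC 0.569, and its MA signal lay close to the lowest signal well above background there, 10.3. Ngp, the neutrophilic granule protein, had 4.50 in SVC, 3.03 in SPA and 10.1 in MA and was not well above background on any array, so it has no ratio. The positions of these probes on mm9 are chr9:109749911-109749970 on the minus strand for Camp, chr9:110942873-110942932 on the plus strand for Ltf and chr9:110324266-110324814 for Ngp, where the last spans 549 bases, more than the 60 of the probe.

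**Figure D2:**
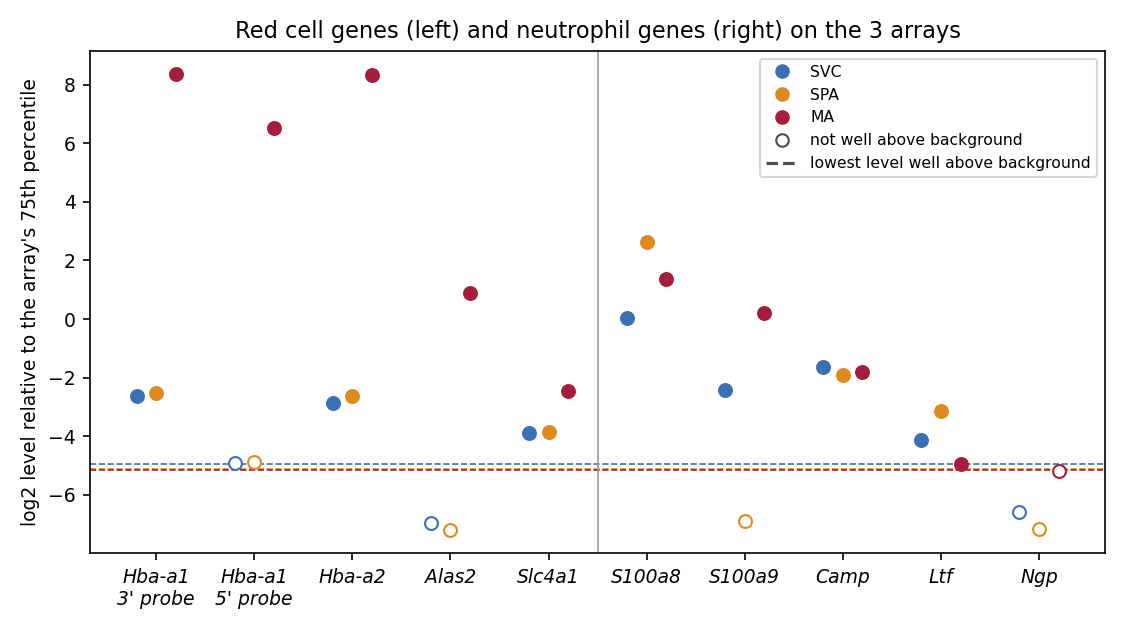
Level of every probe of the 9 genes on the 3 arrays (log2 processed signal minus that of the 75th percentile on the same array), with hollow points where the probe was not well above background and dashed lines at the lowest level well above background of each array. The α-globin genes and Alas2 stand high in MA alone, S100a8 is highest in SPA, S100a9 is highest in MA and lowest in SPA, and Camp hardly moves.

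Each of these probes except those of α-globin is a single spot, so the error assigned by Feature Extraction is the only one for it. That error was 42.2 for the signal of 421.6 of S100a9 in MA and 8.68 for its 79.8 in SVC, and 270 for the 2697 of S100a8 in SPA and 44.6 for its 445 in SVC. The pixel medians of the single spots were between 0.953 and 1.05 times their means on every array, and none had an outlying local background. The probes around each single-spot member, between 512 and 531 neighbours in an area of the slide, had median log2 ratios of at most 0.214 in size. For MA over SVC these medians were all below 0, from -0.214 around Camp to -0.173 around Ngp. The surroundings of the α-globin spots were not read.

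Of the 9 members, 4 were called higher in MA than in SPA and in MA than in SVC, and they are the same genes, Hba-a1, Hba-a2, Alas2 and S100a9. Over all genes tested, 5.47% were called higher in MA than in SPA, of 24101, and 5.72% in MA than in SVC, of 23596. No member was called lower in MA, against 3.97% and 3.96% of all genes. Between SPA and SVC, S100a8 was called higher and S100a9 lower, where 0.32% and 0.351% of all genes were called. Nothing follows for the members from these shares, since they were chosen with the ratios of MA known. The median log2 ratio of MA to SPA over the 4 red cell genes was 8.46 and over the 4 neutrophil genes with a ratio -0.58, beside -0.08 over all genes measured on both arrays. For MA to SVC these were 8.43, 0.56 and -0.07. The medians of the members include bounds at their value, those of Alas2 and, over SPA, of S100a9, whereas those over all genes leave bounds out. Hba-a1 and Hba-a2 count separately there, though their 3′ probes cannot be assigned to either gene alone. The comparisons of MA with SPA and with SVC share the MA array, and so they are not independent.

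The other red cell genes were read from lists that hold globin, membrane, haem, factor and enzyme genes. Of 7 globin genes on the arrays beyond the members, 3 were called higher in MA, all of them adult β-globin genes. Hbb-bt had a signal of 3.29 in SVC, 2.87 in SPA and 20544 in MA, at least 1974-fold over SPA. MA stood above SPA by at least 582-fold for Hbb-b2 and at least 282-fold for Hbb-b1. The β-globin genes were not well above background in SVC or SPA. The probe of Hbb-b1 shares 46 of its 60 bases with the start of Hbb-bs, so its value is uncertain as to the gene. The probes of Hbb-b2 and Hbb-bt were not compared with Hbb-bs or other β-globin transcripts. The 3 calls thus need not stand for 3 expressed genes. Ahsp, the chaperone of free α-globin, was well above background only in MA, at least 2.82-fold over SPA. The embryonic genes Hbb-y and Hba-x were not well above background on any array, and Hbb-bh1 had a ratio of MA to SPA of 1.50.

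The remaining red cell lists held few genes past 5-fold. Of 15 membrane genes, 0 were called in either comparison with MA, 7 were not well above background on any array, among them Epb42, and the median log2 ratio of MA to SPA was 0.38. The 3 with the highest ratio of MA to SPA were Sptb (β-spectrin), which was well above background only in MA and at least 2.47-fold above SPA, Gypc at 1.86-fold and Dmtn at 1.57-fold. The probes of Dmtn disagreed, as the dimmer one had 60.8 in SVC, 60.8 in SPA and 589.8 in MA, which is 11.6-fold over SPA and 11.4-fold over SVC and would pass. Of 10 genes of haem synthesis and iron, only Alas1, the form of the first enzyme in all tissues, was called, at 6.17-fold over SVC, and its ratio to SPA was 3.46. Fech, Ppox and Cpox, enzymes late in haem synthesis, had ratios of MA to SPA of 0.888, 1.81 and 0.349. Tfrc, the transferrin receptor of immature red cells and dividing cells, had a ratio of 0.249 at the probe used and of 0.164, past 5-fold lower, at its other probe.

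Of 8 erythroid factors, Tal1 was called higher in MA than in SPA at 5.03-fold, Tal1 at 6.82-fold and Epor, the erythropoietin receptor, at 9.00-fold were called higher than in SVC, and Zfpm1 was called lower than in SVC. The other probe of Zfpm1 gave a ratio to SVC of 0.375, and that of Epor, dim in SVC and SPA, at least 1.39-fold. Tal1 is also an endothelial gene. Gata1, the master factor of the erythroid lineage, was not well above background on any array, and Klf1 had a ratio of MA to SPA of 0.774. Of 9 enzyme and late maturation genes, only Aqp1 was called, with 261 in SVC, 339 in SPA and 25078 in MA, which was 88.8-fold over SPA. Aqp1 is a water channel of red cells and also of endothelial cells, and 6 of 6 endothelial genes were called higher in MA, with a median log2 ratio to SPA of 3.61. The part of endothelial RNA in the values of Aqp1 and Tal1 was not tested. Car1, Car2 and Bpgm, which come first in the list, had ratios of 2.38, 0.672 and 1.28. The other probe of Car1, dim in SVC and SPA, gave at least 5.39-fold over SPA and at least 4.98-fold over SVC. Over the 49 other red cell genes on the arrays, 5 were called higher in MA than in SPA and 0 lower, 7 higher and 1 lower in MA than in SVC, and the median log2 ratio of the 38 with a ratio was 0.39 to SPA and 0.51 to SVC.

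The other neutrophil genes, like the members, did not go one way. Of 34 such genes on the arrays, 10 were not well above background on any array, 6 were called higher and 1 lower in MA than in SPA, 4 higher and 3 lower in MA than in SVC, and the median log2 ratio was -0.01 to SPA and -0.18 to SVC. With normexp, 2 were called higher in each comparison. Among 7 primary granule genes, only Prtn3 (proteinase 3) was called, with 156 in MA, at least 15.0-fold over SPA and at least 13.2-fold over SVC, and the local background of its spot was outlying on 2 arrays. Mpo (myeloperoxidase) had a ratio of MA to SPA of 0.32 and Elane (neutrophil elastase) of 0.655. Among 8 secondary and tertiary granule genes, Chil3, which macrophages also express, was called higher in MA than in SPA at 5.23-fold. Mmp8, the neutrophil collagenase, was called lower in MA, with 742 in SVC, 543 in SPA and 19.0 in MA, a ratio to SPA of 0.0419. Lcn2, which cells other than neutrophils also express, was called lower in MA than in SVC at a ratio of 0.171. Mmp9 had a ratio of MA to SPA of 0.888 and of MA to SVC of 0.258, where its other probe, dim in MA, was at a ratio of 0.168 or less.

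Of 19 genes of the surface and of mature neutrophils, 4 were called higher in MA than in SPA. Retnlg, a resistin-like gene of neutrophils, was well above background only in MA, at 118, and at least 11.3-fold over SPA. Il1r2, a decoy receptor, was at 7.20-fold, and Hdc, which makes histamine and is also a mast cell gene, at 14.4-fold. Another probe of Hdc, dim in SVC and SPA, gave at least 2.05-fold over SPA, and the third probe of Hdc and the other probe of Il1r2 were not well above background on any array. Trem1, which was not called, had a ratio of 1.07 at the probe used, while its other probe, dim in SVC and SPA, gave at least 5.61-fold over SPA. Wfdc21 had 24.1 in SVC, 149.9 in SPA and 18019 in MA, at 144-fold over SPA. SPA was 6.11-fold above SVC for Wfdc21, and 7 of 10 adipocyte genes were also called higher in SPA than in SVC. Which cells gave the signal of Wfdc21 was not tested. Retnlg, Hdc and Wfdc21 were called over SVC as well, and Fpr1, a receptor for formyl peptides, was called lower there. The surface markers Ly6g and Csf3r had ratios of MA to SPA of 0.559 and 1.23, and Cxcr2 was not well above background on any array. Csf3r was bright on every array, cultured fractions included, at 25253 in SVC, 26928 in SPA and 27512 in MA.

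**Figure D3:**
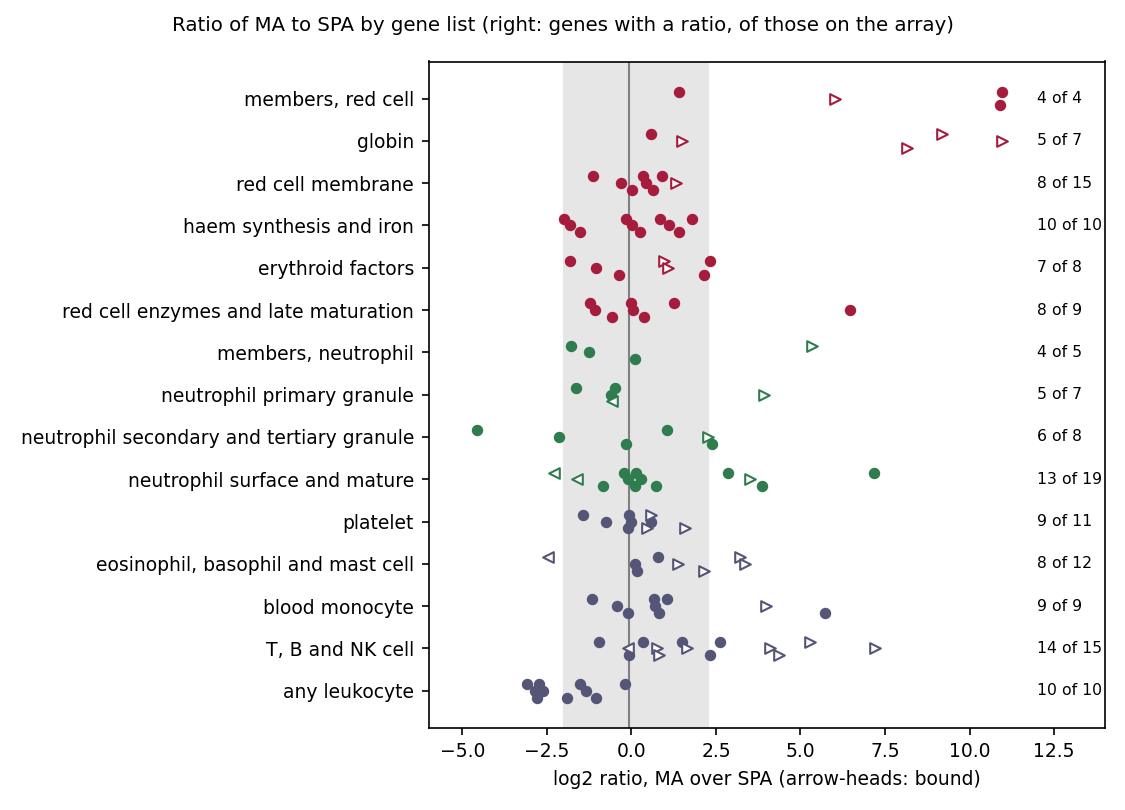
Log2 ratio of MA to SPA for the genes of each list, with filled points for genes measured on both arrays, open arrow-heads for bounds, a line at the median of all genes and a grey band from their 5th to their 95th percentile, and the number of genes with a ratio of those on the array at the right. The adult globin genes lie far to the right of the band, the other red cell lists lie mostly within it, and the neutrophil lists spread to both sides of the line.

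Genes of other blood cells were read in the same way. Of 11 platelet genes, 0 were called in either comparison with MA, and the median log2 ratio of MA to SPA was -0.03. Pf4, Ppbp and Itga2b, the defining platelet genes, were at 0.932-fold, 1.49-fold and at least 1.37-fold over SPA. Pf4 was bright on every array, at 14405 in SVC, 11024 in SPA and 8557 in MA. Of the 11 platelet genes, 3 were well above background in MA alone, among them Clec1b, at least 3.00-fold over SPA. Of 9 genes of blood monocytes, Ccr2, the chemokine receptor of classical monocytes, was called at least 15.7-fold and F13a1 at 52.6-fold over SPA, and over SVC Treml4 and Ace were called in addition, with ratios of MA to SPA of 0.74 and 2.07. Ly6c2 and Plac8, also of monocytes, were at 1.62-fold and 1.58-fold over SPA. Of 15 T, B and NK cell genes, 6 were called higher in MA than in SPA. Gzma, the granzyme of NK and T cells, had 8.90 in SVC, 11.9 in SPA and 1521 in MA, at least 146-fold over SPA, and Nkg7 was at least 38.7-fold above SPA. Cd2, Cd79b and Cd3d were also called, at least 20.5-fold, at least 17.1-fold and 6.16-fold above SPA. Of the defining markers, Cd3e had a ratio of 0.945, Ncr1 was at least 1.78-fold higher and Cd79a was not well above background on any array. Ptprc, Coro1a and Laptm5, which most white cells express, were not higher in MA at the probes used. Their ratios of MA to SPA were 0.869, 0.484 and 0.162, and 5 of 10 such genes were called lower. The 7 probes of Ptprc disagreed, with ratios of MA to SPA from 0.284 to at least 1.71 where 1 could be given. Of 12 eosinophil, basophil and mast cell genes, the mast cell proteases Mcpt4 and Cma1 were called higher in MA, at least 9.30-fold and at least 10.3-fold over SPA, and Siglecf was called lower than in SPA. The eosinophil gene Epx was not well above background on any array, Prg2 was at least 4.47-fold above SPA, and the basophil gene Mcpt8 was well above background in SVC alone. Resident macrophages and lymphocytes of fat express many of these genes too, so the lists do not separate blood from tissue white cells. The cultured fractions also gave strong signals for some macrophage genes. Lyz2 was at 184091 for SVC, 196477 for SPA and 44821 for MA. Cd68 was at 18411, 34547 and 3353 in the same order. Of 11 macrophage genes, 3 were called higher and 1, Cd68, lower in MA than in SPA. Those higher were Cd163 at least 114-fold, C1qb at 12.3-fold and C1qa at 11.3-fold. Over SVC, only Cd163 was called, at 68.3-fold higher in MA. Given the signals in the cultured fractions, a flat or low ratio of MA to them cannot show that MA held few white cells. The part of resident white cells in the values of the members was not tested.

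S100a8 and S100a9 belong to a family of calcium-binding proteins, and its other genes were read beside them. Of 8 other S100 genes, S100b was called higher in MA than in SPA, at 7.19-fold, and S100a4 and S100a6 were called lower, with ratios of 0.0366 and 0.187. S100a1 was at 2.94-fold. The 8 genes went both ways, with log2 ratios of MA to SPA from -4.77 to 2.85 and a median of 0.55.

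The genes most like Hba-a1 and S100a8 were found by the distance between their levels (log2) on the 3 arrays, after the mean of each gene was taken off, among 22508 genes well above background in MA. A level not well above background was put at its bound, so distances to such genes depend on that bound and are no exact measure. Nearest to Hba-a1 were Hba-a2 at 0.13, Hbb-bt at 0.23, Pck1 at 0.88, Ces1d at 0.97 and Hbb-b2 at 1.53. Of these, Pck1, which makes phosphoenolpyruvate, and Ces1d, a carboxylesterase, are genes that adipocytes express. Hbb-bt, Ces1d and Hbb-b2 stood at the bound in SVC and SPA and Pck1 in SVC, and only Hba-a2 was measured on all 3 arrays. Among the 5 genes nearest to S100a8 were Calr3 at 0.25, Myom2 at 0.29, Serpinf2 at 0.36 and an intergenic transcript without a gene name at 0.41, and none of these is a neutrophil gene of the lists. Myom2 and Serpinf2 stood at the bound in SVC.

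**Figure D4:**
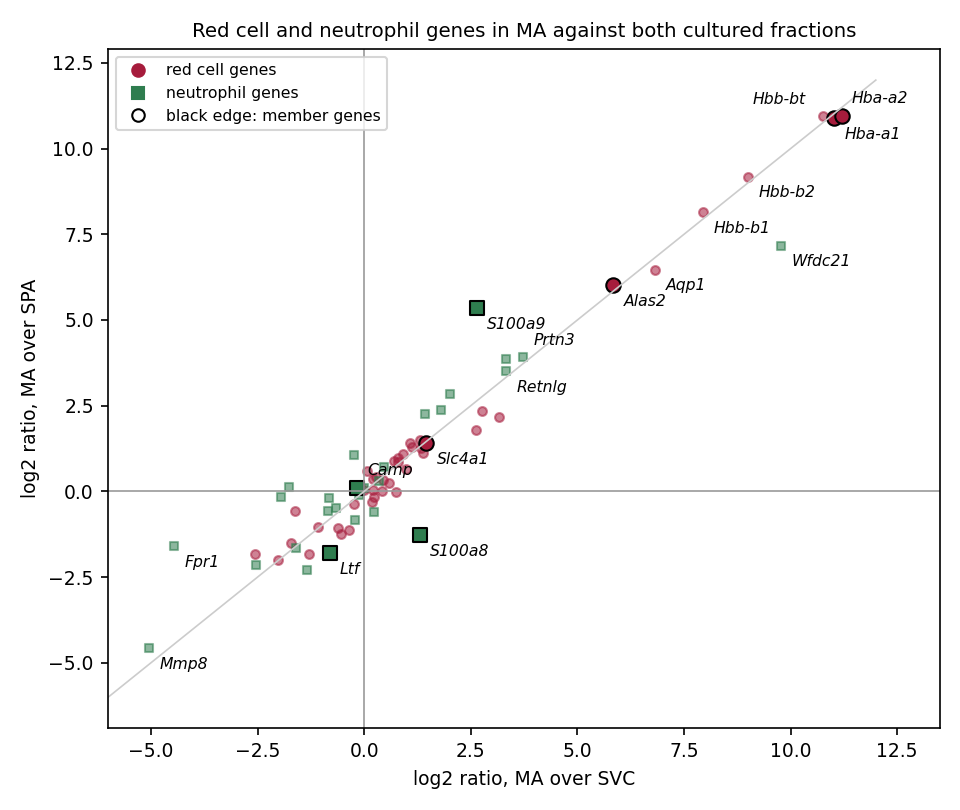
Log2 ratio of MA to SPA against that of MA to SVC for the red cell genes (circles) and the neutrophil genes (squares), members with a black edge, bounds drawn at their value and the grey diagonal where both ratios are equal. The adult globin genes, Alas2 and Aqp1 lie high along the diagonal, S100a9 and S100a8 lie off it on opposite sides, and both axes share the MA array. Wfdc21, a gene of the neutrophil lists, also lies high, at 7.17 over SPA and 9.78 over SVC.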

How the data were processed

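Per the labels, RNA of 3 cell fractions was labelled with Cy3 from 50 ng of total RNA and hybridised to 1 array each. The authors deposited spot intensities from Agilent Feature Extraction 10.7.3.1, namely a background-subtracted processed signal, the raw signal and the local background. The authors also deposited a ratio of that signal to 1 constant per array (departure at most 1.37e-06). Precision is limited by having 1 array per group.

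Control spots and outlier spots (75 in SVC, 98 in SPA and 129 in MA) were left out, spots of 1 probe were averaged as log2 values, and each array was scaled to its 75th percentile (processed signal 430, 439 and 366). Where a gene had several probes, the one with the highest mean level was used. The lowest signal well above background, which sets the bounds, was 13.9 in SVC, 12.5 in SPA and 10.3 in MA. Gene names came from accessions in the RefSeq table of GRCm38.p6 for 32988 of 56602 probes and otherwise from the array. Probe positions are mm9, and the promoters are those of RefSeq.

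The named genes are every member and its probes, the 5 genes nearest to Hba-a1 and to S100a8, the first 3 genes of a list and the genes past 5-fold in it, or where none passed the 3 with the highest ratio of MA to SPA. Macrophage and fibroblast lists were read too: 3 of 11 macrophage genes were called higher and 1 lower in MA than in SPA, and 2 of 5 fibroblast genes higher and 0 lower. A few genes that this rule picks are not reported here. The members and lists were chosen with earlier results of these data known. No test was run. Tested on simulated data (SPA over SVC, 37323 genes), 100 of 100 raised genes and 76 of 100 lowered genes were called. The changed genes were all well above background in SVC and were shifted past 5-fold by design. The added noise was low, with no difference between arrays, so these counts check the code alone and not the error of real arrays. Normexp was run with limma 3.58.1 in R 4.3.3, and all else in Python 3.11.15 (numpy 2.4.6, pandas 2.3.3, matplotlib 3.10.9).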

Additional observations from a re-analysis of the deposited data

How the results depend on the processing

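In all, 9 alternative settings were tried, namely normexp correction with an offset of 50, quantile normalization, scaling to bright probes alone, the ratios as deposited, dim probes kept, probes well above background on both arrays alone, the median probe, the probe of largest ratio, and spots of outlying local background dropped. Of the ratios of single members, 179 stayed within the spread between spots, 24 moved beyond it and 0 reversed. With probes well above background on both arrays alone, the members called higher in MA than in SPA fell from 4 to 2 and those called between SPA and SVC from 2 to 1, the other red cell genes from 5 to 2 over SPA and from 7 to 4 over SVC, and the other neutrophil genes from 4 to 2 over SVC, since this leaves out bounds. With normexp, S100a9 no longer passed in either comparison with SVC. The members called higher in MA than in SVC fell from 4 to 3, and those called between SPA and SVC to 1. With probes well above background on both arrays alone, the former count was also 3, as Alas2 was left out. With normexp, the neutrophil genes fell to 2 over SPA and 2 over SVC, and the cause of its changes was not tested. Under normexp, the log2 ratio of S100a9 was 1.94 for MA over SVC and -1.07 for SPA over SVC. With dim probes kept, the other red cell genes called over SPA rose to 8. The log2 ratio of MA to SPA ranged over the settings from 10.02 to 11.39 for Hba-a1, from 9.99 to 11.03 for Hba-a2, from 3.68 to 8.10 for Alas2, from 3.01 to 7.10 for S100a9 and from -1.27 to -1.19 for S100a8. That of Ltf ranged from -1.83 to -0.49 and that of Slc4a1 from 0.65 to 1.48. No paired analysis was possible because each group holds 1 sample. Signal over background limits what can be read of Ngp, of Alas2 in SVC and SPA and of S100a9 in SPA.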
